A study of Mus musculus with 24 samples.

Results

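The Dβ and Cβ segments of the T cell receptor β (TCRβ) chain, TRBD1, TRBD2, TRBC1 and TRBC2, were followed in the TCRβ repertoires of 24 mouse tumors. A sequence was kept when it carried no stop mark and had a count of at least 2, which left 75357 of the 460417 listed sequences. Of these, 75284 also carried a TRBJ1 or TRBJ2 segment and were used here. TRBD1 was called in 29396 sequences, TRBD2 in 27617 and no D segment in 18271. TRBC1 was called in 75234 sequences, no C segment in 50 and TRBC2 in 0.

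All animals were female BALB/c mice, obtained at 7 to 9 weeks of age, which carried a subcutaneous CT26.CL25 colon carcinoma in each flank, and both tumors of each mouse were sequenced as separate libraries. The 4 groups held 3 mice each. In time-matched mice (mice 6, 12 and 14) both tumors were taken on day 13. In untreated time-separated mice (mice 4, 17 and 19) one tumor was excised on day 9 and the other was taken 11 days later, on day 20. The decitabine (DAC) groups followed the time-separated schedule and received the DNA methyltransferase inhibitor at 0.5 mg/kg (mice 3, 11 and 20) or 2 mg/kg (mice 7, 10 and 16) for 5 consecutive days, starting 3 days after the excision. The tumor numbers of the labels do not say which tumor was taken first, so the 2 libraries of a mouse were averaged and the mouse was the unit of every test. RNA came from whole tumors and the tables hold receptor transcripts alone, so the labelled tissue could not be checked against markers, and more T cells of a clone cannot be told apart from more receptor RNA per cell. Libraries held between 63289 and 887316 counts in 944 to 4658 kept sequences.

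A TCRβ gene is assembled from V, D and J segments during thymic development, and the D segment lies in the centre of the complementarity-determining region 3 (CDR3), the loop that meets the peptide. In the RefSeq listing of the mouse locus (GRCm38.p6), Trbd1 is followed by the Trbj1 segments and Trbc1, and then by Trbd2, the Trbj2 segments and Trbc2. Joining deletes the DNA between segments, so TRBD1 can reach a J segment of either cluster, whereas TRBD2 lies downstream of the TRBJ1 cluster and is placed to join TRBJ2. The C segment is added by splicing, and in this order TRBJ1 is followed by TRBC1 and TRBJ2 by TRBC2. TRBC1 and TRBC2 encode nearly identical constant regions.

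The most abundant CDR3 of each D and J combination is shown first, because the guanine-rich centre is the part from which the D segment is read. Capitals mark runs of at least 3 G. The germline D sequences were not used here, and each line gives the V, D and J calls before the CDR3.
TRBV17, TRBD1, TRBJ1-6 (mouse 10): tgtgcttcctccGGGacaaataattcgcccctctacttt
TRBV13-2, TRBD1, TRBJ2-5 (mouse 12): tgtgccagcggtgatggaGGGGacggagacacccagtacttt
TRBV13-1, TRBD2, TRBJ2-4 (mouse 14): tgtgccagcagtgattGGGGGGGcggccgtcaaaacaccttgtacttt
TRBV13-1, TRBD2, TRBJ1-3 (mouse 14): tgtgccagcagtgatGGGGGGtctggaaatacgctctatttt
TRBV17, no D, TRBJ1-1 (mouse 12): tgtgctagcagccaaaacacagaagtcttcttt
TRBV17, no D, TRBJ2-1 (mouse 6): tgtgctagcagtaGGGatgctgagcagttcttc
The last 2 lines are 33 nucleotides long, and the TRBD2-TRBJ2 line is 48 nucleotides long. The no-D TRBJ2 line still holds a run of G, without a D call. The mouse named is that with the most counts. In the order shown, the CDR3 with these V and J calls was listed in 7, 11, 12, 1, 7 and 12 mice. Of the 536199 counts of the last, 325908 and 209695 were in the tumors of mouse 6.

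A pair of TRBD2-TRBJ1 sequences is shown because they hold different bases at the D core. Here capitals mark ACAGGG in the first line, a run found mainly under TRBD1 calls, and ACTGGG in the second, a run found mainly under TRBD2 calls.
TRBV13-2, TRBD2, TRBJ1-4 (mouse 6): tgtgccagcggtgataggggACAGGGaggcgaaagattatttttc
TRBV31, TRBD2, TRBJ1-2 (mouse 3): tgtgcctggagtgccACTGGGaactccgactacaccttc
The first had 3163 counts and the second 855, each in a single mouse.

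TRBC2, the constant segment that follows the TRBJ2 cluster, was not called in any sequence. It was at 0 of 75284 kept sequences, which allows a share of up to 0.00398%, a limit that covers counting error alone. The sources used here do not say whether the caller or the primers can tell TRBC2 from TRBC1, so this is a limit on the call and not on the use of TRBC2 in the tumors. It was also at 0 of all 460417 listed sequences, where TRBC1 was called in 458945, the α-chain segment TRAC in 36 and no C segment in 1436. All 55104 TRBJ2 sequences with a C call therefore carried TRBC1, and so did all 20130 such TRBJ1 sequences. By the deposited calls, the J-C order of the locus held in every C-called TRBJ1 sequence and in no C-called TRBJ2 sequence of each of the 12 mice. The share of C-called sequences outside the J-C order was 73.9% ± 5.78 (SD, n = 12 mice) and is, with TRBC2 absent, the TRBJ2 share of C-called sequences. The listed sequence ran past the CDR3 by a median of 28 bases and at most 55, and the C call was not read again from these bases. No comparison of TRBC1 with TRBC2 use is possible from these calls.

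The most abundant TRBJ2 clones show this directly. The no-D TRBV17-TRBJ2-1 sequence printed above had 536199 counts with TRBC1 and 0 with TRBC2. The next 4 TRBJ2 clones had 396844, 286445, 277259 and 222669 counts with TRBC1, and 0 with TRBC2 or without a C call. Among the 5 largest TRBJ1 clones, 3 were called TRBC1 in every count and the other 2 had 52 and 57 counts without a C call, beside 135053 and 53964 with TRBC1.

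Sequences without a C call were few but some were abundant. Of the 50, 27 carried TRBJ1 with 32335 counts in all and 23 carried TRBJ2 with 96 counts. A TRBV13-1-TRBJ1-2 sequence without a D call in mouse 17 tumor 2 held 19432 counts, 11.4% of that library (95% Wilson interval 11.3 to 11.6). A TRBV17-TRBJ1-1 sequence in mouse 11 tumor 1 held 12186 counts, 6.12% of its library (95% Wilson interval 6.02 to 6.23). In 18 of the 50 the listed sequence ended at the end of the CDR3, against 0 of the 75234 TRBC1 sequences. The share without a C call was 0.115% in TRBJ1 and 0.0370% in TRBJ2 (means over 12 mice), a difference of 0.0784 percentage points ± 0.118 (SD), higher in TRBJ1 in 7 mice and lower in 4 (exact test by permuted signs, two-sided, p = 0.0430, adjusted p = 0.0516), which did not pass.

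TRBD2 was called mainly with TRBJ2, as the locus order places it. Among sequences with a D call, the TRBD2 share within TRBJ2 had a lowest value of 44.1%, a median of 58.6% and a highest value of 66.6% over the 12 mice. Within TRBJ1 the corresponding values were 7.03%, 13.1% and 25.2%. The ranges did not overlap, and the TRBJ1 share was lower in 12 of 12 mice. The means were 13.3% ± 4.71 in TRBJ1 and 58.4% ± 5.91 in TRBJ2 (SD, n = 12), a difference of -45.1 percentage points ± 7.36 (exact test by permuted signs, two-sided, p = 0.000488, the smallest p it allows, adjusted p = 0.00110 over 9 within-mouse comparisons). TRBD1, which can join either cluster, made up the remaining 11372 of 13137 D-called TRBJ1 sequences and 18024 of 43876 D-called TRBJ2 sequences.

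The 1765 TRBD2-TRBJ1 sequences are the D-J combination outside the locus order. They made up 2.25% ± 0.786 of the kept sequences of a mouse (SD, n = 12) and 1.23% ± 1.10 of the counts. Mouse 14, of the time-matched group, had the highest TRBD2 share in TRBJ1, with 19.4% in tumor 1 and 30.9% in tumor 2. Its TRBV13-1-TRBJ1-3 sequence printed above had 9544 counts in tumor 1 and 32592 in tumor 2, which were 74.6% and 89.7% of the TRBD2-TRBJ1 counts of those libraries. Weighted by counts, the TRBD2 share of D-called TRBJ1 in these 2 libraries was 28.4% and 58.3%, and the median over the 24 libraries was 7.61%.

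The bases of the CDR3 gave a different picture of the TRBJ1 sequences than the calls. The hexamers ACAGGG and ACTGGG were searched on the coding strand of each CDR3. Among TRBD1 calls, 8509 held ACAGGG alone and 406 held ACTGGG alone. Among TRBD2 calls, 933 held ACAGGG alone and 8955 held ACTGGG alone. Neither hexamer was present in 69.6% of TRBD1 and 64.2% of TRBD2 calls, and no sequence without a D call held either hexamer. Within TRBJ1 the order was the other way, with neither hexamer in 67.0% of TRBD1 and 82.7% of TRBD2 calls. Within TRBJ2 the shares were 71.3% and 62.9%. In TRBJ1, 4001 sequences held ACAGGG alone and 47 held ACTGGG alone, whereas in TRBJ2 the numbers were 5441 and 9314.

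Read from these hexamers in place of the deposited call, the TRBD2-type share was 1.49% ± 3.02 in TRBJ1 and 62.5% ± 8.01 in TRBJ2 (SD, n = 12 mice). The median mouse had 0.640% in TRBJ1, and the highest, mouse 3 of the DAC 0.5 mg/kg group, had 11.0%. Of the 47 TRBJ1 sequences with ACTGGG alone, 21 came from mouse 3, whose TRBV31-TRBJ1-2 sequence is printed above. The difference between the clusters was -61.0 percentage points, with the same sign in 12 of 12 mice (exact test by permuted signs, two-sided, p = 0.000488, adjusted p = 0.00146; this reading was added after the data had been seen). Sequences with neither hexamer are left out of these shares, so they do not cover the same sequences as the calls. ACTGGG was taken as TRBD2-type because it was found mainly under TRBD2 calls, so this reading is not independent of the calls.

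Among the 1765 TRBD2-TRBJ1 sequences, 43 held ACTGGG, 262 held ACAGGG alone, 766 held neither but had a run of at least 6 G, and the remaining 694 had none of these. Among the 25852 TRBD2-TRBJ2 sequences, 8919 held ACTGGG and 671 held ACAGGG alone. ACAGGG alone therefore made up 14.8% of TRBD2 calls in TRBJ1 and 2.60% in TRBJ2, and ACTGGG 2.44% and 34.5%. Runs of at least 6 G were frequent under TRBD2 calls, at 44.4% in TRBJ1 and 58.7% in TRBJ2, and rare under TRBD1 calls, at 3.34% and 6.13%. What set the D call of TRBJ1 sequences without ACTGGG was not tested.

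**Figure D1:**
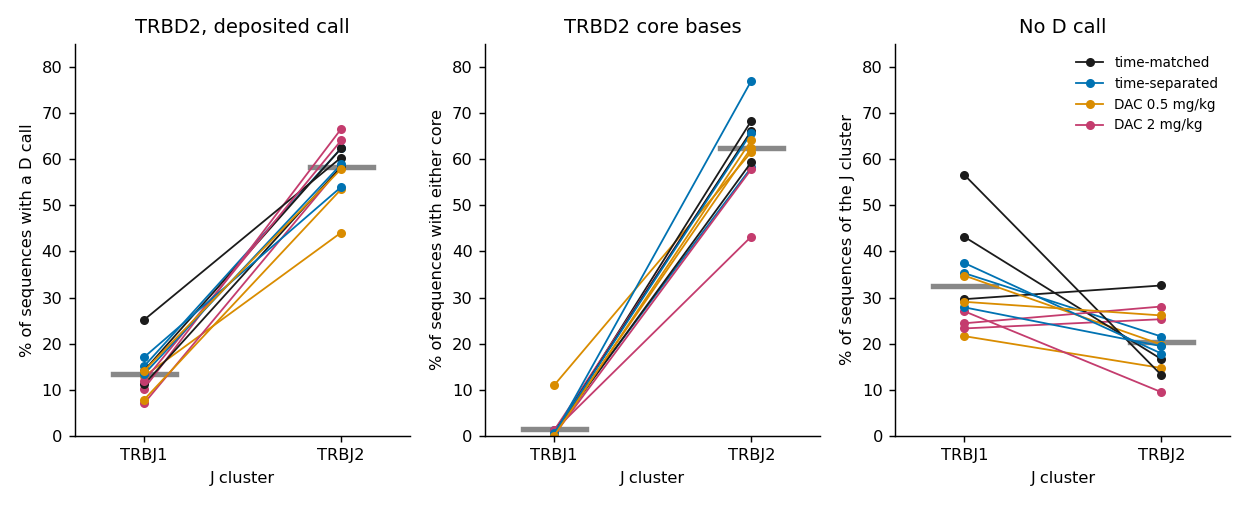
TRBD2 share of D-called sequences by the deposited call (left), share with ACTGGG among sequences with either D core hexamer (middle) and share without a D call (right), in percent, in the TRBJ1 and TRBJ2 clusters. Each line is a mouse (mean of its 2 tumors), coloured by group, and grey bars are means over 12 mice. The TRBD2 share is 13.3% in TRBJ1 by call and 1.49% by hexamer.

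The D-J pattern was seen in the means of the 12 J segments called. Trbj1-7 and Trbj2-6 of the RefSeq listing were not called in the kept sequences. Each of the 6 TRBJ1 segments had a mean TRBD2 share between 9.11% (TRBJ1-6) and 20.0% (TRBJ1-3), and the 6 TRBJ2 segments lay between 38.9% (TRBJ2-2) and 61.6% (TRBJ2-3). TRBJ2-2 was at 38.9% ± 16.5 and its neighbours TRBJ2-1 and TRBJ2-3 were at 56.5% ± 16.1 and 61.6% ± 15.9 (SD, n = 12). These steps were not tested. The spread was smallest in TRBJ1-1, at 9.84% ± 2.87. In TRBJ1-3 it was 16.4, with mouse 14 at 67.7%, and in TRBJ2-2 the lowest mouse, mouse 10, was at 15.7%.

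**Figure D2:**
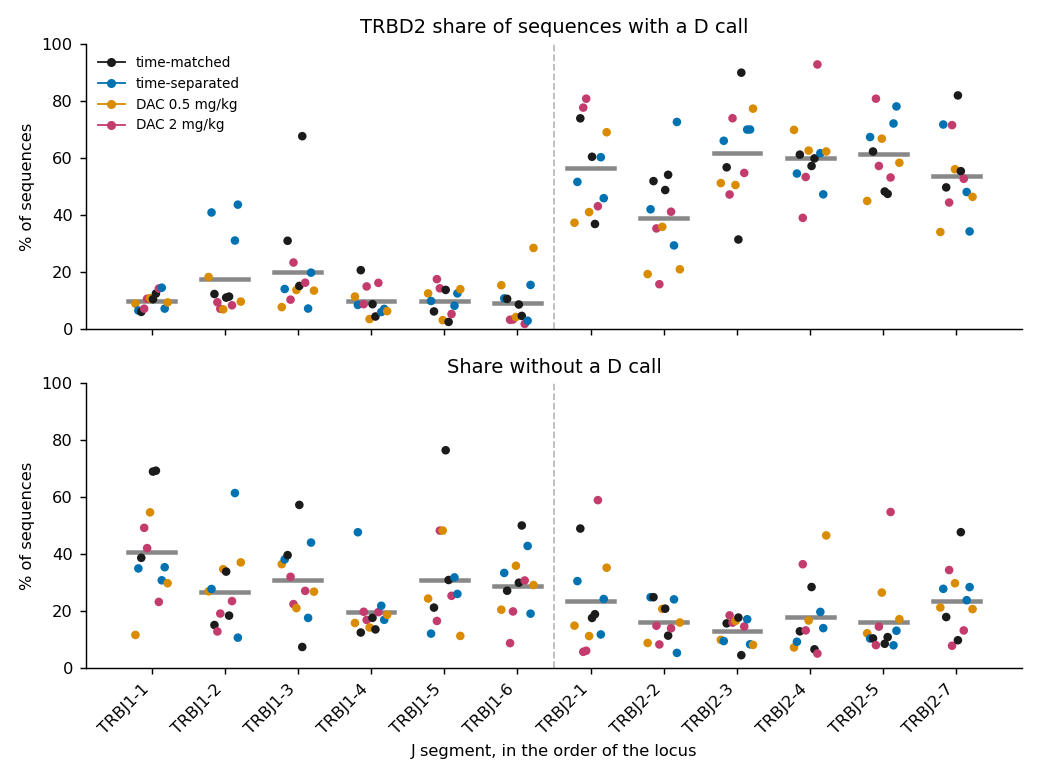
TRBD2 share of D-called sequences (top) and share without a D call (bottom), in percent, for each J segment in the order of the locus, with the boundary between TRBJ1 and TRBJ2 dashed. Points are mice, coloured by group, and grey bars are means over 12 mice. The TRBD2 share steps up from TRBJ1-6 (mean 9.11%) to TRBJ2-1 (mean 56.5%).

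Across V segments the D calls varied as well. Of the 16 V segments with at least 10 D-called sequences in every mouse, TRBV13-1 had the highest TRBD2 share of D-called sequences, 69.9% ± 11.6, and TRBV29 the lowest, 23.4% ± 8.96 (SD, n = 12). The share without a D call was highest in TRBV17, at 48.3% ± 24.8, and lowest in TRBV4 and TRBV13-1, at 12.9% ± 10.2 and 13.0% ± 7.93. These values are descriptions without a test.

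No D segment was called in 24.04% ± 4.56 of the sequences of a mouse (SD, n = 12), with a lowest value of 15.9%, a median of 24.7% and a highest value of 31.9%. In TRBJ1 the lowest, median and highest values were 21.6%, 29.4% and 56.6%, and in TRBJ2 they were 9.46%, 19.6% and 32.6%. The ranges overlapped, and TRBJ1 was higher in 9 of 12 mice. The means were 32.5% ± 9.87 and 20.4% ± 6.69, a difference of 12.1 percentage points ± 13.8 (exact test by permuted signs, two-sided, p = 0.00781, adjusted p = 0.0117). The 3 mice with the opposite order were mouse 6 of the time-matched group and mice 7 and 16 of the DAC 2 mg/kg group. Weighted by counts the difference was 15.2 percentage points and no longer passed (exact test, adjusted p = 0.234, range over the other alternatives 0.00176 to 0.0234 with each mouse left out included). By segment, the mean no-D share ran from 40.8% in TRBJ1-1 to 13.2% in TRBJ2-3.

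Sequences without a D call were shorter. Their CDR3 averaged 36.4 ± 0.995 nucleotides and that of D-called sequences 42.4 ± 1.22 (SD, n = 12 mice). The difference was -5.97 ± 1.83 nucleotides and was negative in 12 of 12 mice (exact test by permuted signs, two-sided, p = 0.000488, adjusted p = 0.00110). A D call needs D bases in the CDR3, so part of this difference is set by the calling. At 30 nucleotides 72.1% ± 14.9 of the sequences had no D call, at 42 nucleotides 15.5% ± 6.32, and at 48 nucleotides 4.43% ± 2.92. At the same CDR3 length TRBJ1 had the higher mean from 33 to 48 nucleotides, with 75.5% against 51.1% at 33, 33.9% against 18.2% at 39 and 18.4% against 7.502% at 45. At 30 nucleotides the order was the other way, with 56.1% ± 28.3 in TRBJ1 (SD, n = 6 mice with at least 10 such sequences) and 72.6% ± 15.0 in TRBJ2 (SD, n = 12). At 42 nucleotides the clusters were at 17.3% ± 5.14 and 14.5% ± 7.37, a step smaller than the spread between mice.

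Absence of a D call did not mean absence of G. A run of at least 3 G was present in 27.6% ± 10.0 of no-D TRBJ1 sequences and in 32.5% ± 15.4 of no-D TRBJ2 sequences (SD, n = 12 mice). Mouse 6 was highest in TRBJ2, at 75.7%, and without it the means were 27.4% and 28.5%. Under D calls the share over all sequences was between 84.3% (TRBD1 with TRBJ2) and 97.4% (TRBD2 with TRBJ1). No CDR3 had more than 1 D call, over 59714 different CDR3 sequences, so the call is a fixed function of the CDR3 here.

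Within TRBJ2, where both D segments are used, TRBD2 sequences were longer than TRBD1 sequences. The CDR3 averaged 43.6 ± 1.88 nucleotides with TRBD2 and 41.0 ± 1.30 with TRBD1 (SD, n = 12 mice). The difference was 2.57 ± 1.51 nucleotides, from 0.0634 in the lowest mouse to 5.10 in the highest, and was positive in 12 of 12 mice (exact test by permuted signs, two-sided, p = 0.000488, adjusted p = 0.00110). Within TRBJ1 TRBD2 averaged 41.8 and TRBD1 41.98 nucleotides. The TRBD2 share of D-called TRBJ2 sequences was 43.3% ± 23.6 at 33 nucleotides and 79.7% ± 13.6 at 48 nucleotides. In TRBJ1 the shares at these lengths were 10.2% ± 7.45 and 11.4% ± 6.76. Of 339 TRBD2 sequences of 60 nucleotides, 326 came from mouse 19 of the time-separated group.

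**Figure D3:**
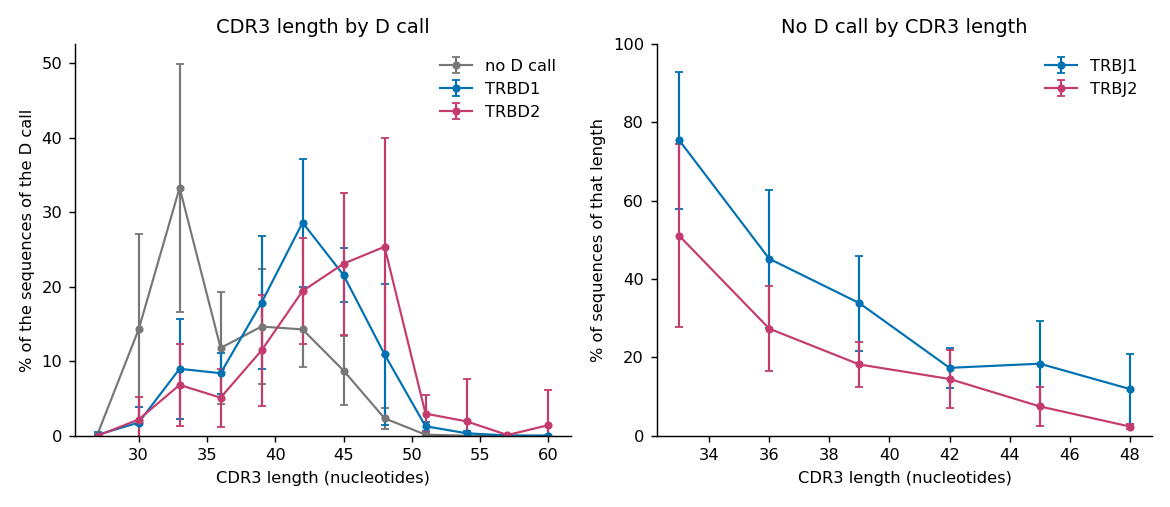
Left, CDR3 length distribution (nucleotides) of sequences without a D call, with TRBD1 and with TRBD2, as percent of each class. Right, percent of sequences without a D call at each CDR3 length in TRBJ1 and TRBJ2. Points are means over 12 mice and bars are SD, cut at 0. The no-D class peaks at 33 nucleotides and TRBD2 at 48.

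The D classes also differed in how often a CDR3 was found again in another mouse. The same CDR3 with the same V and J was found in at least 2 mice for 530 of 13693 sequences without a D call (3.87%), for 427 of 24392 with TRBD1 (1.75%) and for 309 of 22033 with TRBD2 (1.40%). With a count of at least 10 required in each library, the shares were 2.78%, 1.57% and 1.38%. These are descriptions without a test. Of the recurrent no-D sequences, 22.1% had over 90% of their counts in a single mouse, and this share was 28.1% for TRBD1 and 39.5% for TRBD2. The part of reads carried over between libraries was not tested.

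The no-D share was next set out by counts and by sequences. It was 30.3% ± 15.0 of counts and 24.04% ± 4.56 of sequences (SD, n = 12), higher by counts in 10 of 12 mice (difference 6.25 percentage points ± 10.8, exact test by permuted signs, two-sided, p = 0.0459, adjusted p = 0.0516), which did not pass. Without mouse 6 the difference was 3.75 percentage points, and without the largest clonotype of each library it was 1.52 (exact test, adjusted p = 0.609, against 0.0161 to 0.961 under the other alternatives). In that mouse the printed no-D TRBV17-TRBJ2-1 clone held 55.6% of the counts of tumor 1 (95% Wilson interval 55.5 to 55.7) and 55.8% of those of tumor 2 (55.6 to 55.9). In mouse 16 a no-D TRBV13-2-TRBJ2-5 clone of 30 nucleotides held 29.7% (29.6 to 29.8) and 32.8% (32.7 to 32.98).
Its CDR3, TRBV13-2, no D, TRBJ2-5 (mouse 16): tgtgccagcggtgaggccacccagtacttt
The largest clone of a library had no D call in 9 of 24 libraries, TRBD1 in 10 and TRBD2 in 5. All 5 TRBD2 clones and all 9 no-D clones carried TRBJ2, and 2 of the TRBD1 clones carried TRBJ1.

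The TRBD2 share of D-called TRBJ2 was 59.0% by counts and 58.4% by sequences, a difference of 0.578 percentage points ± 8.71 (exact test by permuted signs, p = 0.814). The share outside the J-C order, which equals the TRBJ2 share of C-called sequences, was 78.6% by counts and 73.9% by sequences, higher by counts in 10 of 12 mice (difference 4.72 percentage points ± 4.71, exact test by permuted signs, two-sided, p = 0.00684, adjusted p = 0.0117). Over all sequences, C-called or not, the TRBJ2 share was 77.97% by counts and 73.8% by sequences. The abundant TRBJ1 sequences without a C call set the 2 measures apart, with 83.7% outside the order against a TRBJ2 share of 74.2% in mouse 17 tumor 2, and 81.8% against 76.7% in mouse 11 tumor 1. Without the largest clone of each library the difference in the share outside the J-C order was 0.690 percentage points (exact test, adjusted p = 0.650, against 0.00264 to 0.0234 under the other alternatives).

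The groups were compared next, to ask whether harvest schedule or DAC went with a shift in D or C calls. In each DAC mouse the excised tumor was taken before the first dose, so a DAC mean mixes untreated and treated tumors. The time-separated means likewise mix tumors of day 9 and day 20. A shift confined to the late or treated tumors would be diluted in these means. The no-D share was 31.9%, 26.2% and 23.8% in the time-matched mice and 25.4%, 23.7% and 21.5% in the untreated time-separated mice. It was 16.1%, 23.99% and 26.9% at DAC 0.5 mg/kg and 25.6%, 15.9% and 27.5% at DAC 2 mg/kg. The groups overlapped. The time-matched mean of 27.3% ± 4.14 was 3.79 percentage points above the untreated time-separated mean of 23.5% ± 1.98 (SD, n = 3 each, exact permutation test, two-sided, p = 0.2, where 0.1 is the smallest possible, adjusted p = 0.800 over 12 group comparisons). It was 4.36 percentage points above the mean of all 9 time-separated mice, 22.9% ± 4.35 (exact permutation test, p = 0.150, adjusted p = 0.800). Without mouse 6 these differences were 1.499 and 2.08 percentage points, with a count minimum of 10 they were 2.03 and 1.83, and weighted by counts 12.3 and 13.7.

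TRBV17 made up 53.5% ± 11.4 of the no-D sequences of time-matched mice and 25.1% ± 12.4 of those of the 9 time-separated mice (SD, n = 3 and 9). Without TRBV17 the no-D share was 15.7% ± 1.36 in time-matched, 21.6% ± 0.975 in untreated time-separated and 20.1% ± 4.27 in all 9 time-separated mice (SD), so the differences were -5.92 and -4.40 percentage points. TRBV17 was picked after its high no-D share had been seen, so a fall of the mean no-D share was built into the choice. The size of the shift between groups is not a finding.

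The TRBD2 share of D-called TRBJ2 was 62.4%, 58.4% and 60.4% in the time-matched mice, 62.4%, 58.9% and 54.0% in the untreated time-separated mice, 44.1%, 53.5% and 57.9% at DAC 0.5 mg/kg, and 58.4%, 66.6% and 64.1% at DAC 2 mg/kg. The 3 low-dose mice lay below the 3 high-dose mice, and the untreated mice overlapped both. The means of the 3 time-separated groups ran from 51.8% ± 7.05 at DAC 0.5 mg/kg to 63.0% ± 4.21 at DAC 2 mg/kg, with 58.4% ± 4.22 untreated (exact permutation test over the 3 groups, p = 0.0750, adjusted p = 0.800). This spread of 11.2 percentage points was 7.33 without mouse 3, 6.99 with a count minimum of 10 and 24.5 weighted by counts. Time-matched mice differed from untreated time-separated mice by 1.96 percentage points (p = 0.700, exact permutation test) and from all 9 time-separated mice by 2.62 (p = 0.514, exact permutation test). Mouse 3 had the lowest share, with 40.7% in tumor 1 and 47.5% in tumor 2.

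The share outside the J-C order differed by -0.0458 percentage points between time-matched and untreated time-separated mice, by -1.65 between time-matched and all 9 time-separated mice, and ran from 72.7% to 75.4% over the 3 time-separated groups (exact permutation tests, adjusted p = 1.00 for each). With TRBC2 absent this share is the TRBJ2 share of C-called sequences, so these 3 comparisons do not bear on C calls. TRBC2 was at 0 in every library of all 4 groups, so its share could not be compared. None of the other 9 group comparisons passed after adjustment, which was made over all 12 with the 3 fixed at 0 included, and the lowest unadjusted p was 0.0750. With 3 mice a group these tests have little reach, and a p that misses the threshold does not show that the groups were alike.

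**Figure D4:**
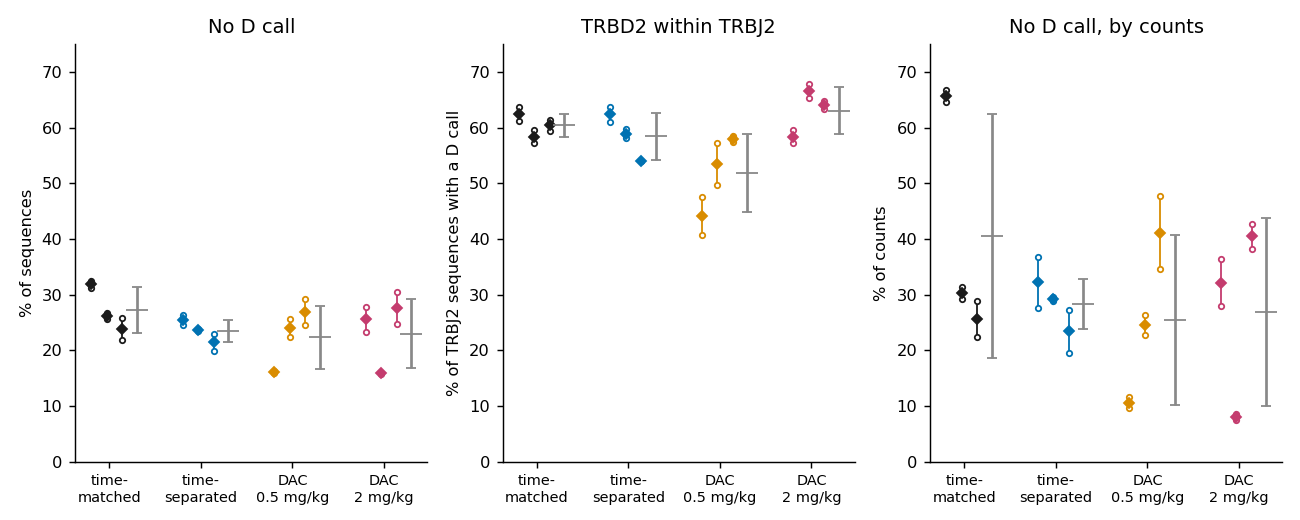
Share without a D call by sequences (left), TRBD2 share of D-called TRBJ2 sequences (middle) and share without a D call by counts (right), in percent, in the 4 groups. Diamonds are mice (mean of 2 tumors), open circles their tumors, and grey bars are group means ± SD (n = 3). The groups overlap in the left and right panels, and the tumors of a mouse lie up to 13.0 percentage points apart (mouse 20, by counts).

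Tumors of a mouse and tumors of different mice of the same group were then set side by side. For the no-D share the mean absolute difference was 2.48 percentage points over 12 tumor pairs of a mouse and 5.93 over 48 pairs from different mice of a group. For the TRBD2 share of D-called TRBJ2 the values were 2.76 and 5.75, and for the TRBD2 share of D-called TRBJ1 4.66 and 5.96. The first 2 shares differed less within than between mice in each of the 4 groups. The TRBJ1 share did so in 3 groups, and in the time-separated group it differed by 7.43 within and 5.59 between mice. By counts the no-D share differed by 5.08 within and 18.8 between mice. These pairs share libraries and are described without a test.

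Sequences that carried a stop mark, which the kept set leaves out, were also read for their D calls. The 28925 such sequences with a count of at least 2 had no D call in 25.2% ± 4.46, TRBD2 in 59.6% ± 6.21 of D-called TRBJ2 and in 10.9% ± 6.92 of D-called TRBJ1 (SD, n = 12 mice). Each of these means lay within 1 SD of that of the kept sequences. Error copies of kept clones were not told apart from true rearrangements with a stop. A likeness to the kept set may therefore be built in. By abundance, the TRBD2 share of D-called TRBJ1 was 15.2% over all sequences of count 2 and 8.86% over the 79 with at least 1000 counts. The TRBD2 share of D-called TRBJ2 at these counts was 60.3% and 57.1%.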

How the data were processed

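TCRβ libraries were made from whole-tumor RNA with a kit that adds unique molecular identifiers (UMIs), and the authors called V, D, J and C segments with Cogent NGS Immune Profiler 2.0. The deposited tables give a count for each listed sequence, and the values are raw counts. The study's methods call them reads, and whether these are reads left after UMI merging is not given in the sources used here, so shares by counts, the count minimum and the intervals refer to counts as listed. The genome build and the aligner are not given in the sources used here. The α-chain tables were not used. Allele suffixes were dropped, and sequences with a stop mark, a count under 2 or no TRBJ segment were left out. Each kept sequence counted once, shares were formed per library and averaged over the 2 libraries of a mouse. For shares by J segment, by V segment and by CDR3 length the 2 libraries of a mouse were pooled instead. Sequencing errors in large clones can be listed as separate sequences, which was not measured, so clonotypes (CDR3 amino acids, V and J) were an alternative. PCR copies are not independent molecules, and intervals cover counting error alone.

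Within-mouse differences were tested by exact permutation of signs over 12 mice and groups by exact permutation of mice, two-sided, with Benjamini-Hochberg adjustment over 9 and 12 comparisons and a threshold of 0.05. The 9 include the J-C order in TRBJ1 against TRBJ2, a difference fixed once TRBC2 was never called. Mice are separate animals. The test by permuted signs and that of 3 against 9 mice recovered set differences on simulated data. Members, lists and tests were chosen with earlier results of these data known. The text names the 4 segments, the J clusters and segments, the most abundant CDR3 of each D-J-C class and the 5 largest clones of each J cluster. The 2 CDR3 with D core hexamers and the V segments were chosen after their values were seen. Tables were handled in pandas 2.3.3 and NumPy 2.4.6 under Python 3.11.15, intervals came from SciPy 1.17.1 and plots from Matplotlib 3.10.9.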

Additional observations from a re-analysis of the deposited data

Results flagged for a closer look

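Of 36 sets of 6 libraries (9 measures in 4 groups), 5 held a library whose gap to the nearest other library was large against the range of its group by Dixon's criterion. Chance flags about 1 in 20 such sets, and the 2 tumors of a mouse are not independent. In the time-separated group 11.4% of the counts of mouse 17 tumor 2 had no C call, and the next library was at 0.0720%. In the DAC 0.5 mg/kg group mouse 11 tumor 1 was at 6.13%, with the next at 0.00445%, and in the DAC 2 mg/kg group mouse 10 tumor 1 was at 0.112%, with the next at 0.0151%. Each of these 3 values rests almost wholly on a single sequence, of 19432, 12186 and 372 counts.

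The TRBD2 share of D-called TRBJ1 counts was 27.7% in mouse 20 tumor 2 of the DAC 0.5 mg/kg group (95% Wilson interval 26.7 to 28.8), and the next library of the group was at 12.1%. A TRBV31-TRBJ1-6 sequence of 48 nucleotides gave 78.8% of these TRBD2 counts. The mean CDR3 length without a D call was 33.9 nucleotides in mouse 19 tumor 2 of the time-separated group, and the nearest other library was at 36.7. None of the 8 tests of whether a within-mouse contrast differed between groups passed (lowest unadjusted p = 0.0786, adjusted p = 0.448, exact permutation test).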

How the results depend on the processing

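The D-J step, both CDR3 length differences and the absence of TRBC2 kept their direction and their side of the threshold under every alternative run. The TRBJ1 excess of sequences without a D call was 15.2 percentage points by counts (exact test, adjusted p = 0.234) and passed under the others. The TRBJ1 excess of sequences without a C call did not pass as reported and passed with a count minimum of 1 (0.0874 percentage points), a count minimum of 10 (0.127), stop-marked sequences kept (0.0671), counts as weights (2.97) and thinning to 63289 counts a library (0.0943), but not by clonotypes (0.0219, exact test, adjusted p = 0.294). It ranged from 0.0577 to 0.0893 with each mouse left out, passing without mouse 3, 7, 16 or 20, and was 0.0117 without listed sequences that end at the CDR3, none of which has a C call, so that a fall was built in. The no-D share by counts minus sequences passed with a count minimum of 10 (8.08) and thinning (6.79), ranged from 3.75 to 7.53 with each mouse left out, passing without mouse 3 or mouse 10, and was 0.113 without TRBV17. The share outside the J-C order by counts minus sequences was 0.690 without the largest clonotype of each library. The cause of these shifts was not tested.

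Signs turned only for differences that had not passed. The TRBD2 share of TRBJ2 by counts minus sequences was -0.868 with a count minimum of 1 and ranged from -0.744 to 2.04 with each mouse left out. Time-matched minus time-separated values were -0.303 for the TRBD2 share of TRBJ2 with a count minimum of 10 (-0.608 against all 9 time-separated mice) and ranged from -0.257 to 3.94 with each mouse left out. For the share outside the J-C order this difference was 1.14 with a count minimum of 1 and 1.91 by counts, and ranged from -1.25 to 1.93 with each mouse left out. For the no-D share it was 2.44 after thinning and -5.92 without TRBV17 (-4.40 against all 9). TRBV17 was picked for its high no-D share, so the size of this shift is not a finding. The readings without TRBV17, without sequences that end at the CDR3 and from the D core hexamers were chosen after seeing the data. Mice could not be paired between groups, which share no mouse numbers. The smallest library, of 944 sequences, held 189 with TRBJ1, so its TRBJ1 shares are the least precise.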
